A study of Homo sapiens with 16 samples.

Results

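The passage from the first to the second day of HER2 inhibition was examined in SUM-225 cells by comparing the arrays at 12, 15, 18 and 21 h of CP724,714 with the arrays at 24, 27, 30 and 33 h, which are 8 of the 16 arrays of the time course. The arrays were taken by the time in their labels, 4 to each set. SUM-225 is a line derived from a breast cancer with an amplified and over expressed HER2 gene, and CP724,714 is a small molecule inhibitor of the HER2 kinase. The compound was added to the medium at 1 µM for all cultures of both sets. The labels give a medium with serum, insulin and hydrocortisone, while the methods of the study give one without EGF or insulin for this line, and which of these held for the arrays is not settled by the sources used here. A separate culture was harvested every 3 h and its RNA was hybridised to 1 bead array, so that no time point had a replicate and no culture was followed over time. No untreated course was analysed here, and time in culture cannot be told apart from time in the inhibitor. The division of the course into sets of 4 arrays was noticed in these data and is not in the labels, and which arrays shared a chip or a hybridisation is not given in the sources used here. If the boundary between 21 and 24 h was also one between chips or hybridisations, a step between the sets cannot be told apart from a difference between those, and this holds for every step given here.

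HER2 drives the RAS to ERK cascade and the PI3K to AKT pathway. ERK activity is read out in transcripts of its feedback inhibitors, such as the DUSP phosphatases and the Sprouty proteins, while AKT keeps the FOXO transcription factors out of the nucleus. When cells leave the cycle, genes needed for mitosis are shut off together through promoter elements known as the CHR and the CCAAT box.

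Each probe was described by 3 quantities on the log2 scale. The difference is the mean signal at 24 to 33 h minus that at 12 to 21 h. The trend is the change over 9 h along straight lines fitted inside the sets, averaged over both sets, and uses no comparison between them. The step is the part of the difference that the trend leaves over, as a jump between the lines midway between 21 and 24 h. Errors are standard errors (SE) from the scatter of the 8 arrays around the lines, with limma's moderated test and Benjamini-Hochberg adjustment over 16110 probes (12010 named genes). The median SE was 0.10 for the difference, 0.14 for the trend and 0.21 for the step. Because the trend is subtracted in the step, an error in the trend enters the step with the opposite sign.

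Between the sets 1623 probes (10.1% of those tested) were higher at 24 to 33 h and 1441 (8.94%) were lower at an adjusted p under 0.05. The difference reached 1 log2 unit for 63 of the higher and 53 of the lower probes. Inside the sets 114 probes (0.708%) rose and 261 (1.62%) fell. The step was upward for 335 probes (2.08%) and downward for 182 (1.13%). On the level of genes, each read by its brightest probe, 10.8% were higher and 9.38% lower, 0.758% had a rising and 1.87% a falling trend, and 2.36% had an upward and 1.17% a downward step. The difference between the trend at 24 to 33 h and that at 12 to 21 h passed the threshold for 0 probes in limma, with 1130 at an unadjusted p under 0.05. When the 21 h array was left out, 1988 probes differed, 105 had a trend and 86 a step. Without the 24 h array there were 201 trends and 213 steps, without the 12 h array 156 trends, without the 33 h array 103 trends, and without the 18 h array 249 trends and 344 steps.

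Of the 3064 probes with a difference, 67.4% had a trend of the same sign, and 43.4% moved in the direction of the difference inside both sets. Among the probes whose difference was not called these shares were 55.0% and 30.7%. The 67.4% became 58.1% without the 21 h array and 52.8% without the 24 h array. On a straight course the trend would carry on at the pace of the difference over the 12 h between the centres of the sets. The median probe with a called difference continued at 0.27 of that pace, and the median probe without one at 0.23. Of the 53 probes that were lower by at least 1 log2 unit, 49 had a trend below 0 (92.5%), and of the 63 that were higher by as much, 39 had a trend above 0 (61.9%). These shares are descriptions without a test, and the trend of most probes lies within its error. By the tests of trend and step together, 145 probes continued (50 upward and 95 downward), 205 changed as a step with no trend at an unadjusted p of 0.05 (132 upward and 73 downward), 4 did both (all downward), and 39 moved against the difference inside the sets. The other 2671 could not be resolved with 4 arrays a set, among them probes with a step whose trend had an unadjusted p under 0.05. Continuing asks for a called trend along the difference and for both slopes in its direction. It does not exclude a move back between the sets. Of the 145 continuing probes 105 had a step estimate against the difference, which was called for 11. Of all 375 probes with a trend, 163 had a called step against it. Without the 21 h array 41 probes continued and 16 were steps, without the 24 h array 59 and 44, and without the 33 h array 36 continued. The continuing probes were 70, 76 and 90 without the 12, 18 and 30 h arrays, and 128 probes were steps without the 18 h array. The opposed probes were 14, 25, 12 and 8 without the 12, 18, 21 and 33 h arrays.

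**Figure D1:**
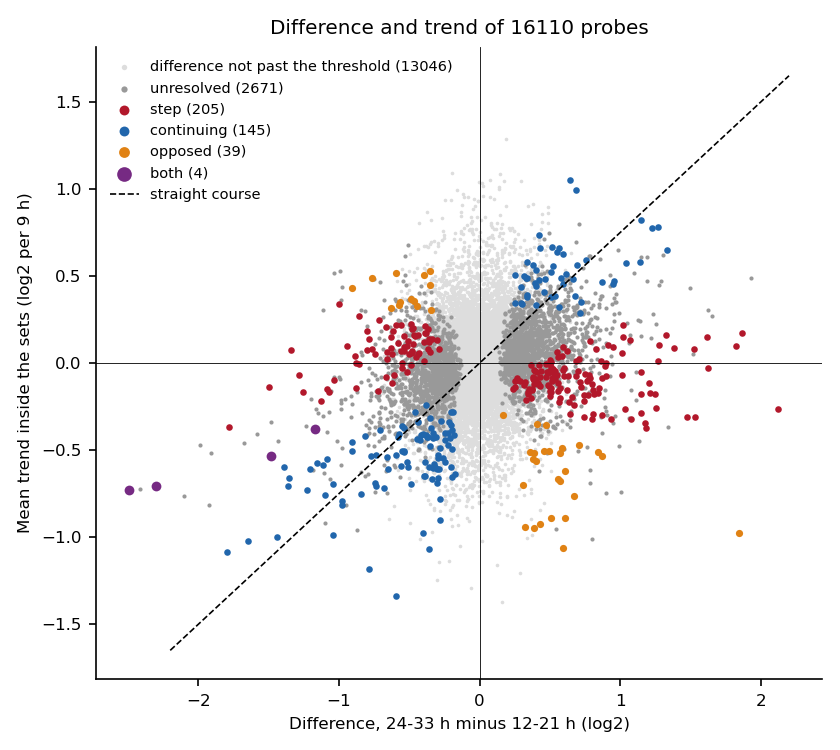
Difference between the sets (x axis, log2) against the mean trend inside the sets (y axis, log2 per 9 h) for 16110 probes, coloured by class, with the dashed line showing where a straight course would lie. The 205 step probes lie along the horizontal axis, the 145 continuing probes in the lower left and upper right, and the 39 opposed probes in the other corners.

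The arrays as wholes showed both a jump between the sets and a change inside them. Component 1 of a principal component analysis, with 37.5% of the variance, separated the sets, from -24.0 at 12 h to -10.9 at 21 h and then from 13.6 at 24 h to 19.3 at 33 h. Component 2 (15.3%) ran from 19.0 at 12 h to -18.4 at 21 h and was back at 13.7 at 24 h. The root mean square difference of arrays 3 h apart was 0.258 to 0.304 log2 units inside a set (n = 6 pairs) and 0.363 between 21 and 24 h. Elsewhere in the course it was 0.267 (39 to 42 h) to 0.418 (42 to 45 h), and 3 such intervals exceeded the 0.363 between the sets, the other two starting at 3 h (0.397) and at 9 h (0.416). The median signal ranged from 294 to 361 on the arrays of the first set and from 274 to 384 on those of the second, and 14294 to 15073 probes were detected.

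**Figure D2:**
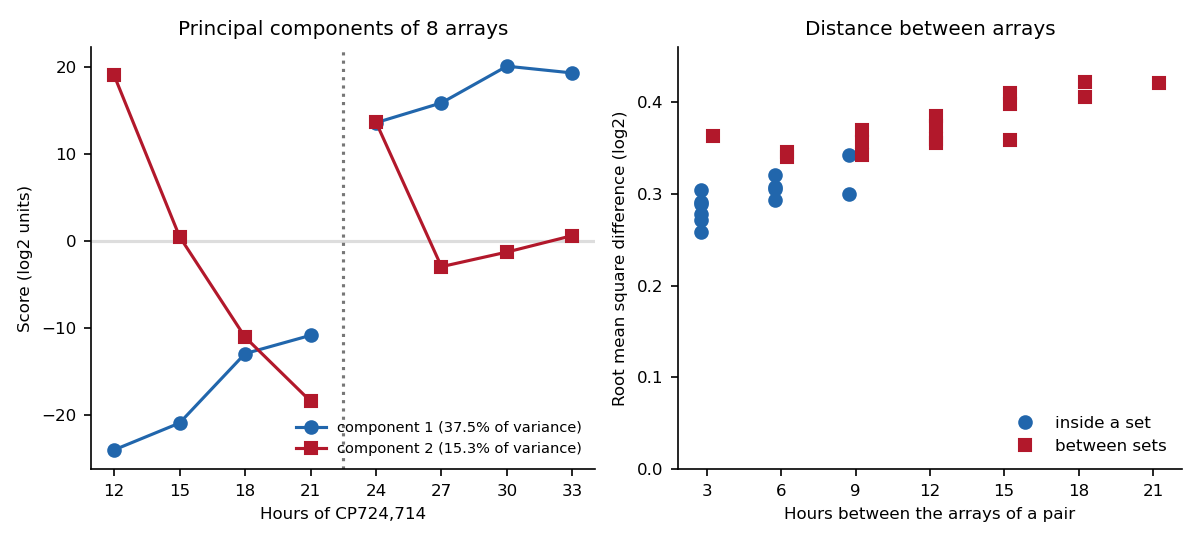
Left, scores of the 8 arrays on the first and second principal components against hours of CP724,714. Right, root mean square log2 difference of each pair of arrays against the hours between them, for pairs inside a set and between sets. The first component jumps between 21 and 24 h, from -10.9 to 13.6, and the second returns to a value near that of 12 h.

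All 8 markers of the line were detected on each of the 16 arrays. ERBB2, which encodes HER2, was at 16.05 to 16.10 in the first set and 16.02 to 16.12 in the second, which reached 99.4% of the brightest signal on the array, so that a change would be compressed. Between the sets EPCAM fell by 0.44 ± 0.10 (SE, adjusted p = 0.00465) and CDH1 fell by 0.14 ± 0.05 (adjusted p = 0.0496, limma). Of 10 markers of blood, vessel and stromal cells 5 were tested, while PTPRC, COL3A1 and DCN were detected on 0 arrays. VWF, a vessel marker, was at 6.11 to 6.36 in the first set and 7.46 to 7.57 in the second, and COL1A1, a stromal collagen, fell by 0.59 ± 0.19 (adjusted p = 0.0392). Their part in the other results was not tested.

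Several of the largest rises had a step. PLA2G10, a secreted phospholipase, went from 11.47, 11.50, 11.67 and 11.86 to 13.27, 13.10, 13.42 and 13.31, a step of 1.29 ± 0.14 (adjusted p = 4.43e-05). The sets did not overlap, which held upward for 1283 and downward for 1154 of the 12010 genes. The trend of PLA2G10 was 0.27 ± 0.09 (unadjusted p = 0.00879, limma). LDHD, the mitochondrial D-lactate dehydrogenase, was 3.80-fold higher, with a step of 1.27 ± 0.28 that lost its call without the 21 h array (1.25, adjusted p = 0.275) or the 24 h array (0.92, adjusted p = 0.377). Its trend was 0.49 ± 0.18 (unadjusted p = 0.0157, limma). Because of these trends both genes were classed as unresolved and not as a step.

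DIO1, a deiodinase that activates thyroid hormone, measured 5.67, 6.10, 6.17 and 6.48, then 8.10, 8.18, 7.85 and 7.60. Its trend was 0.75 ± 0.28 in the first set and -0.55 ± 0.28 in the second. The mean trend of 0.10 ± 0.19 thus averaged opposite slopes. The step of DIO1 (1.69 ± 0.30) was not called without the 21 h array (1.69, adjusted p = 0.129). SLC2A6, a sugar transporter, had a step of 1.60 ± 0.25 (adjusted p = 0.00131), which was 1.39 without the 21 h array (adjusted p = 0.135) and 1.42 without the 24 h array (adjusted p = 0.0712). The step of LGR6, a receptor for R-spondins, was 1.68 ± 0.31 (1.19 without the 21 h array, adjusted p = 0.331), and a dimmer probe of LGR6 had a difference of the other sign (-0.32, adjusted p = 0.125). ANXA8, an annexin with near-identical copies, had a step of 1.53 ± 0.22 (1.21 without the 24 h array, adjusted p = 0.0611). AMTN, which encodes an enamel matrix protein, was undetected at all 4 times of the first set and detected at all 4 of the second, at least 1.98-fold higher (adjusted p = 2.13e-05).

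Downward steps were found in genes of other kinds. CSNK1G2, a casein kinase, measured 11.86, 11.81, 12.08 and 12.24, then 10.94, 10.82, 10.76 and 10.34. It drifted up in the first set and down in the second, so that the mean trend was -0.07 ± 0.10 and the step -1.19 ± 0.15 (adjusted p = 0.000196). CYP1B1, a cytochrome P450 of steroid and xenobiotic metabolism, kept within 11.18 to 11.45 in the first set and 10.25 to 10.45 in the second, with a step of -1.07 ± 0.16 (adjusted p = 0.000682). TNFSF13, the cytokine APRIL, GNG11, a G protein subunit, and LAMP3, a lysosomal membrane protein, had steps of -1.44, -1.31 and -1.29. None of these 3 steps was called without the 21 h array, where they were -0.85, -1.07 and -1.10 (adjusted p = 0.529, 0.194 and 0.407), or without the 24 h array, where they were -1.66, -0.86 and -0.98 (adjusted p = 0.0753, 0.146 and 0.318). LAMP3 also fell inside the first set, from 8.69 at 12 h to 7.44 at 21 h (trend there -1.24 ± 0.27, adjusted p = 0.0294). In the second set its estimate was 0.51 ± 0.27, so that the mean trend was -0.37 ± 0.19. The step of LAMP3 was -0.43 without background correction (adjusted p = 0.114), and it was also not called without the 18 h array, with all 16 arrays in the fit, with array weights or with 1 trend in common (adjusted p = 0.0514 to 0.139). A second TNFSF13 probe differed by -0.46 (adjusted p = 0.0932).

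**Figure D3:**
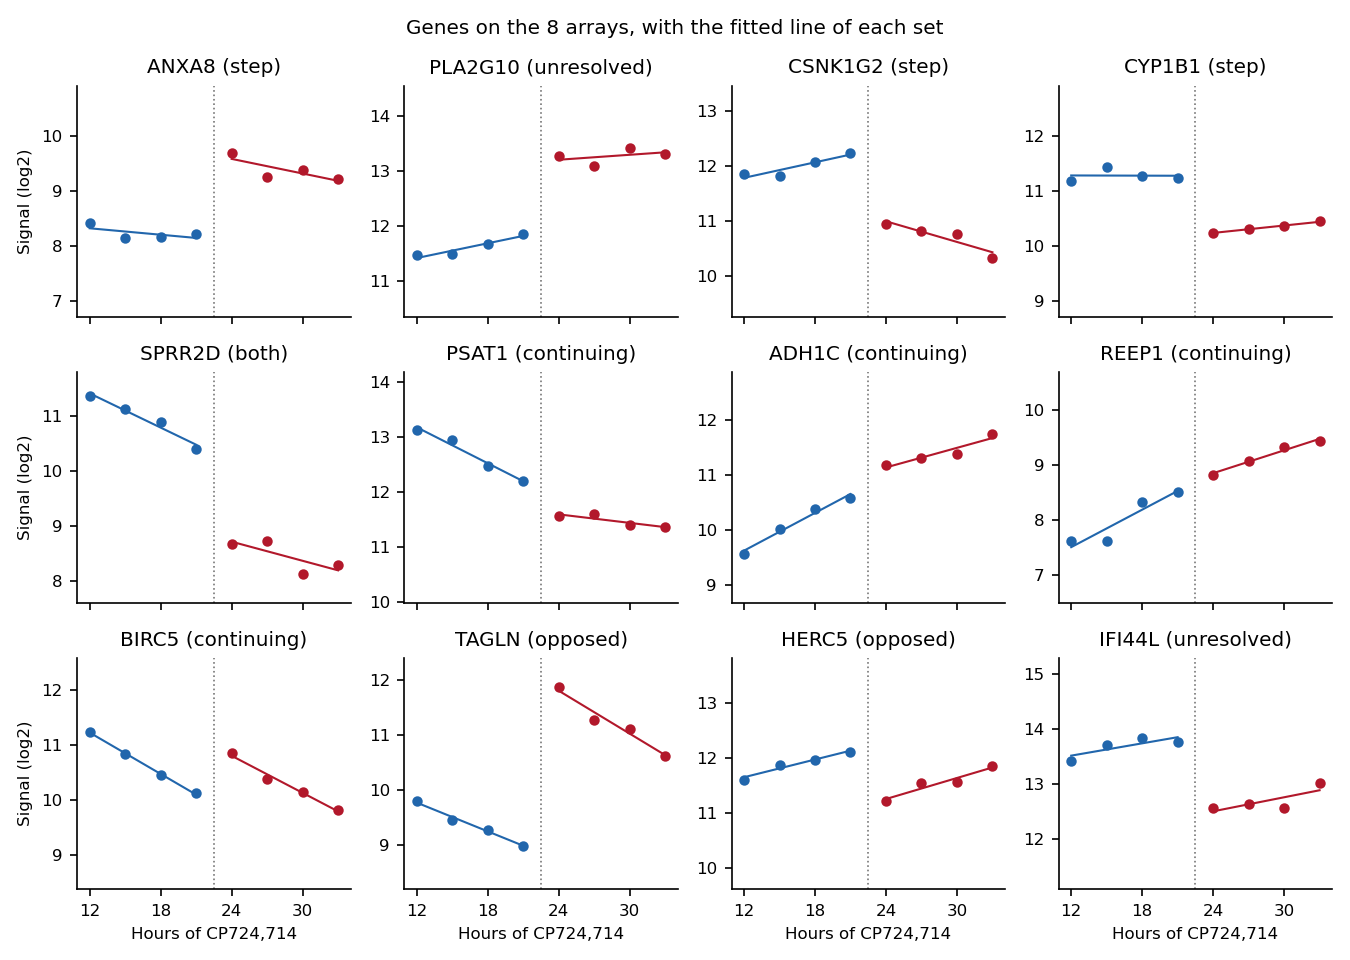
Log2 signal of 12 genes on the 8 arrays (points) with the line fitted inside each set, blue for 12 to 21 h and red for 24 to 33 h. Every panel spans the same 4.2 log2 units. ANXA8, CSNK1G2 and CYP1B1 change as a step, ADH1C and REEP1 lie near 1 straight course, and TAGLN and HERC5 move back inside the sets.

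Other rises ran on inside both sets, in part with a drop between them. ADH1C, an alcohol dehydrogenase, measured 9.56, 10.02, 10.38 and 10.58, then 11.18, 11.30, 11.38 and 11.74. Each array was above the one before it, with a trend of 0.78 ± 0.10 (adjusted p = 0.000323) and a step of 0.22 ± 0.16 (adjusted p = 0.568). Its near-identical neighbour ADH1A had the same trend, and the signals of the pair cannot be told apart here. REEP1, a protein that shapes the endoplasmic reticulum, went from 7.62 at 12 h to 9.43 at 33 h with a step of 0.05 ± 0.22. Its trend of 0.82 ± 0.15 was not called without the 21, 24 or 33 h array (adjusted p = 0.0789, 0.0602 and 0.0515). CYP4Z1, a breast-enriched cytochrome P450, rose by 1.05 ± 0.09 inside the sets and had a downward step of -0.76 ± 0.14 (adjusted p = 0.00499), which was not called without the 24 h array (-0.79, adjusted p = 0.0731). A second CYP4Z1 probe had a trend of 0.99 and a difference of 0.69 (adjusted p = 2.09e-06), and a much dimmer one a trend of 1.01 and a difference of 0.14 (adjusted p = 0.696). AQP3, a water and glycerol channel, had a trend of 0.74 ± 0.14 and lost its call without the 12, 21, 24 or 33 h array (0.56, 0.83, 0.57 and 0.81, with adjusted p = 0.159, 0.0666, 0.164 and 0.0654). It dropped from 8.96 at 21 h to 8.60 at 24 h (step -0.56 ± 0.22, adjusted p = 0.207), and its sets overlapped. Its difference of 0.42 was not called without the 12 or the 21 h array (adjusted p = 0.0741 and 0.0761).

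In the list of alcohol and aldehyde dehydrogenases, 6 of 11 genes were higher and 1 lower (median difference 0.37, against -0.01 over all genes). Over all tested genes 10.8% were higher and 9.38% lower. ADH1A, ADH1C and ALDH1A1, which makes retinoic acid, continued, while ALDH3B1 and ALDH3A1, which oxidise fatty aldehydes, stepped up by 1.22 and 0.85.

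The largest fall among the named genes was that of a cornified envelope gene. SPRR2D, a small proline-rich protein of squamous cells, measured 11.37, 11.12, 10.88 and 10.41, then 8.67, 8.72, 8.12 and 8.30, a 5.62-fold difference (adjusted p = 8.98e-11). It fell by 0.73 ± 0.13 inside the sets (adjusted p = 0.00563) and by a further step of -1.52 ± 0.20 (adjusted p = 0.000324). The trend was -0.62 without the 21 h array (adjusted p = 0.168). SPRR2A and SPRR2F, close relatives whose probes can share target, had differences of -2.30 and -1.91. KRT86, a hair keratin, ran down from 11.86 to 10.40 in the first set and from 9.78 to 9.10 in the second, and was called as continuing (trend -1.02 ± 0.13, step -0.28 ± 0.20).

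Of 19 tested genes of squamous keratins and cornification 11 were lower and 3 higher (median difference -0.55), and 7 had a falling trend, or 4 without the 21 h or the 33 h array. Among all tested genes 9.38% were lower, 10.8% were higher and 1.87% had a falling trend, and 3 of 19 higher is near that share. The 3 higher genes of the list were KRT4 and KRT13, the keratins of non-cornified squamous epithelium, which stepped up by 1.27 and 1.73, and CNFN. The laminin chain LAMB3, the leader among integrins, laminins and desmosomes, fell by 0.52 ± 0.09. In that list 6 of 19 genes were lower, against 9.38% of all tested genes. The lower genes of the list numbered 1 without the 21 h array, 2 without the 15 h array and 3 without the 24 or the 33 h array.

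CLGN, a testis chaperone, measured 9.40, 8.81, 8.19 and 8.27, then 6.33, 6.33, 6.26 and 6.08, and was 5.34-fold lower. CALCB, a calcitonin-related peptide, was 3.98-fold lower. The steps were -1.45 ± 0.29 for CLGN and -1.36 ± 0.24 for CALCB, and neither was called without the 21 h array (-0.88 and -1.67, adjusted p = 0.467 and 0.0518) or the 24 h array (-1.34 and -1.39, adjusted p = 0.137 and 0.0579). PLAC1, a placental gene, continued (trend -1.09 ± 0.20, or -0.96 and -0.85 without the 12 h and the 33 h array, adjusted p = 0.145 and 0.158). OR2A9P, an olfactory receptor pseudogene, was undetected in the second set and at least 2.36-fold lower. DHRS9, a short-chain dehydrogenase, had the steepest continuing fall (-1.34 ± 0.25), but was detected on 3 arrays of each set and lost that call without the 21, 24 or 33 h array (adjusted p = 0.135, 0.0976 and 0.114). Its difference of -0.60 was called without the 12 h or the 30 h array and not without any other (adjusted p = 0.0597 to 0.12). Between the sets DHRS9 rose, from 5.75 at 21 h to 6.65 at 24 h (step 1.19 ± 0.38, adjusted p = 0.109).

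The mitosis genes fell inside the sets and rose between them. Of 29 tested genes 27 fell inside the sets (median trend -0.65) and 22 had an upward step (median 0.84), while 8 were lower in the comparison of the means (median -0.15), or 5 without the 18, 24 or 33 h array and 0 when no trend was fitted. The shares over all tested genes were 1.87% with a falling trend, 2.36% with an upward step and 9.38% lower. All 29 were higher at 24 h than at 21 h, against 48.7% of all tested probes, with a median rise of 0.54. BIRC5, which encodes the inhibitor of apoptosis survivin and serves in chromosome segregation, measured 11.24, 10.84, 10.44 and 10.12, then 10.86, 10.37, 10.15 and 9.81. The last array of the first set was as low as the third of the second set, and by 36 h the level was 8.55. Its trend was -1.07 ± 0.10 (adjusted p = 2.85e-05) and its step 1.06 ± 0.15 (adjusted p = 0.000575). A dimmer BIRC5 probe had a trend of -1.14, a step of 1.23 and a difference of -0.29 (adjusted p = 0.154). MAD2L1, of the spindle checkpoint, had the largest difference in the list (-0.79 ± 0.20), and was detected on 2 of 4 arrays of the second set. That difference was not called without the 21, 24 or 33 h array (-0.75, -0.50 and -0.61). Without the 21 h array 14 mitosis genes had a falling trend and 3 an upward step. Without the 24 h array 12 had the step.

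The promoters of this list share sequence elements that the comparison did not use. Of the 24 list genes with a RefSeq promoter of 300 bases (assembly GRCh38.p14, 250 before the start and 50 after it), 16 held the CHR core TTTGAA on either strand (66.7%, against 15.4% of 27305 promoters) and 19 held CCAAT (79.2% against 35.7%). Both were present in 14 (58.3% against 6.1%). The genes below are those with a falling trend whose 250 bases before the start hold exactly 1 copy of each, and the stretches run from 10 bases before the first match to 10 after the last, with both matches in capitals and read along the gene's strand.
KIF23: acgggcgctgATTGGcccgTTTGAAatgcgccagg
PLK1: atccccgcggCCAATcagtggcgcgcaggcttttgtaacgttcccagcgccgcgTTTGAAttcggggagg
KIF11: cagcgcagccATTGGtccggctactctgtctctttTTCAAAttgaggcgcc
PRC1: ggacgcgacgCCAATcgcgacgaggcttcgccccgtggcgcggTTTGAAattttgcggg
The order in all 4 is CCAAT and then CHR towards the start site. KIF23 (chr15:69414275-69414309, plus strand), a kinesin of cytokinesis, had a trend of -0.83. PLK1 (chr16:23678806-23678875, plus strand), a mitotic kinase, had a trend of -0.66, and KIF11 (chr10:92593067-92593117, plus strand), the kinesin that separates the spindle poles, one of -0.64. PRC1 (chr15:90994540-90994598, minus strand), which bundles the central spindle, had a trend of -0.60. A match describes these letters in this window and does not show that a factor is bound.

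PLK1 measured 10.71, 10.41, 10.31 and 9.97, then 10.26, 10.24, 9.85 and 9.69. KIF11 measured 9.49, 9.42, 9.38 and 8.98, then 9.68, 9.65, 9.13 and 8.97. Both genes ended each set lower than they began it, and the ranges of both overlapped between the sets.

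Several genes of DNA synthesis combined a fall inside the sets with a higher second set. TYMS, which makes thymidylate, measured 10.33, 10.07, 9.96 and 9.88, then 11.06, 10.78, 10.56 and 10.12. It fell at every interval of 3 h other than that from 21 to 24 h, with a trend of -0.68 ± 0.10 (adjusted p = 0.00116) and a step of 1.47 ± 0.16 (adjusted p = 4.22e-05). TK1 and DUT, which supply and guard the same nucleotide pool, and CDT1, which licenses replication origins, had courses of the same form, with differences of 0.46, 0.57 and 0.59 and steps of 1.13, 1.26 and 1.24. The falling trend of DUT was not called without the 12, 18, 21, 30 or 33 h array (-0.59 to -0.49, adjusted p = 0.0593 to 0.23), and that of CDT1 was not called without the 12, 21 or 33 h array (-0.49 to -0.41, adjusted p = 0.0929 to 0.23) or with all 16 arrays in the fit (adjusted p = 0.0564). DUT was read by 3 probes of similar brightness, of which one more had the opposed course (trend -0.62, step 1.44) and the other had not (difference 0.31, trend 0.32, step -0.12). Of 8 genes of deoxynucleotide supply 5 had a falling trend and 5 an upward step, against 1.87% and 2.36% of all tested genes. Without the 12, 21 or 33 h array the falling trends numbered 3, 2 and 1, and without the 21 h array the steps were 3.

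Of 27 genes of DNA replication 6 fell inside the sets (2 without the 12 h array and 1 without the 21 or the 33 h array). Over all tested genes 1.87% fell inside the sets and 9.38% were lower in the second set. Between the sets CDT1 was higher and 5 genes of the replication list were lower, GINS2, FEN1 and the helicase subunits MCM2, MCM3 and MCM4, or 3 without the 15, 18 or 33 h array and 1 without the 21 h array. There 11 of 23 promoters held an E2F element, TTTCCCGC or TTTGGCGC on either strand (47.8% against 2.3% of all), and 0 held TTTGAA. For circadian genes the E-box CACGTG was found in 5 of 16 promoters (31.2% against 7.4%). Of these genes 3 of 17 were higher, against 10.8% of all tested genes, a count too small to be a result about the list. Among them were the output transcription factor DBP (0.45 ± 0.08) and the clock repressor PER2 (0.32 ± 0.07).

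CDKN1A, the CDK inhibitor p21, was higher by 0.71 ± 0.07 with the same form of course, at 11.71, 11.56, 11.30 and 11.29, then 12.49, 12.07, 12.22 and 11.91. Its step was 1.33 ± 0.15, and its falling trend of -0.47 ± 0.10 was not called without the 12, 21, 24 or 33 h array (adjusted p = 0.145, 0.081, 0.251 and 0.214). Of 18 genes of the G1 cyclins, CDK inhibitors, RB and E2F 6 were higher, including CDKN1C and CDKN2C, and CCND1, which encodes cyclin D1, fell by 0.35 as a continuing change. Of 13 histone genes 5 were higher, led by H2BC21 (0.62 ± 0.08), a histone H2B. Both counts of higher genes stand against 10.8% of all tested genes.

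TAGLN, an actin-binding protein of contractile cells, had a course of this form. It measured 9.81, 9.45, 9.28 and 8.99, then 11.88, 11.28, 11.11 and 10.63. It fell along both sets (trend -0.98 ± 0.11, adjusted p = 0.000117) and stepped up by 3.14 ± 0.16 (adjusted p = 9.02e-09). A dimmer TAGLN probe was also higher in the second set (1.53, adjusted p = 2.32e-06), with a step of 1.94 and a trend of only -0.31, and was classed as a step. At 9 h, just before the first set, the brighter TAGLN probe had been at 12.66. KIF5C, a neuronal kinesin, also fell inside the sets (-1.06 ± 0.17) with a step of 2.01 ± 0.26. Neither was called for KIF5C without the 21 h array (-0.94 and 1.77, adjusted p = 0.0812 and 0.0583).

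The interferon-stimulated genes were lower in the second set. Of 20 tested 18 were lower at 24 to 33 h (median difference -0.54), 15 had a downward step (median -0.88) and 18 had a positive estimate of the trend, of which 7 passed the test. Among all tested genes 9.38% were lower, 1.17% had a downward step and 0.758% a called rising trend. All 20 were lower at 24 h than at 21 h, where the median change was -0.76. IFI44L measured 13.42, 13.71, 13.84 and 13.75, then 12.56, 12.63, 12.56 and 13.01. The sets did not overlap, with a step of -1.47 ± 0.15 (adjusted p = 3.44e-05) and a trend of 0.36 ± 0.10 (adjusted p = 0.0715). ISG15, a ubiquitin-like modifier, climbed from 13.43 to 13.86 in the first set and from 12.64 to 13.08 in the second, and its rise inside the sets was called (0.49 ± 0.08, adjusted p = 0.00203). HERC5, the ligase that attaches ISG15, rose from 11.60 to 12.11 and again from 11.21 to 11.84, a trend of 0.53 ± 0.09 that was not called without the 12, 21, 24 or 33 h array (adjusted p = 0.0659, 0.0515, 0.0543 and 0.084).

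PARP14 fell by 0.40 with a step of -1.07 ± 0.17 (-1.16 without the 21 h array, adjusted p = 0.0635). The rising trends of interferon-stimulated genes were 1 without the 12 or the 33 h array, 2 without the 21 or the 24 h array, 1 under median scaling, 2 under cyclic loess or with all 16 arrays in the fit and 3 with array weights, while 16 to 18 genes were lower under every alternative run. Without the 21 h array 9 steps were called. Of 10 genes of HLA class I presentation 4 were lower and 3 stepped down (1 without the 21 h array), led by HLA-F at -0.63 ± 0.07, whose step of -0.91 ± 0.15 was not called without the 24 h array (-0.75, adjusted p = 0.0867). Of 12 inflammatory cytokines 3 were lower, and CXCL5 was undetected in the second set, at least 1.49-fold lower. Over all tested genes 9.38% were lower and 1.17% stepped down. The count of 3 cytokines is too small to be a result about that list.

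**Figure D4:**
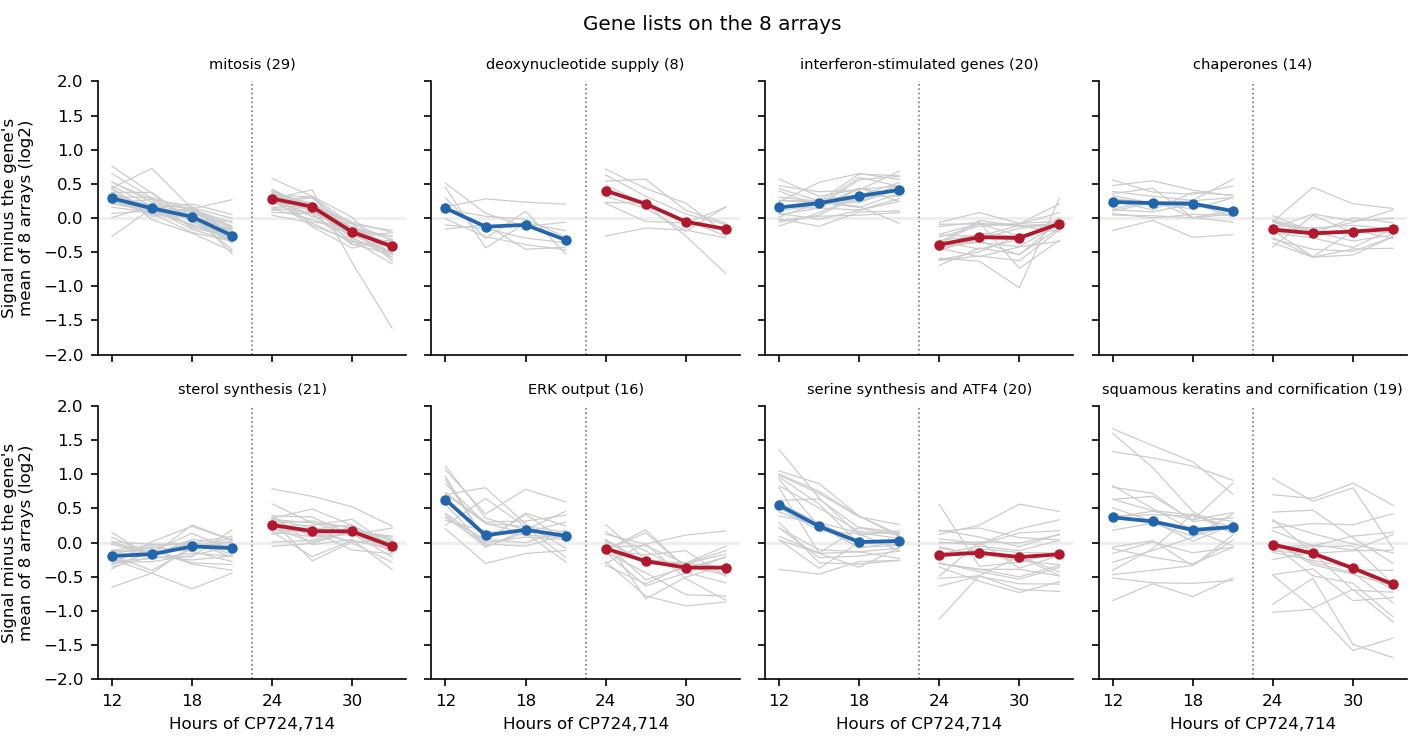
Log2 signal minus the gene's own mean over the 8 arrays for the tested genes of 8 lists (grey lines) with the median of the list (coloured points), against hours of CP724,714; the number of genes stands in each title. The list medians of mitosis and deoxynucleotide genes run down inside the sets and up between them, and that of interferon-stimulated genes drops between the sets, where 7 of the 20 genes passed the test of a rise inside them.

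Chaperone genes were mostly lower in the second set. Of 14 tested 11 were lower and 1, DNAJB9, was higher (median difference -0.37), with 5 downward steps and 0 trends in limma. The shares over all tested genes were 9.38% lower and 1.17% with a downward step. HSPA8, the constitutive HSC70, measured 15.66, 15.73, 15.59 and 15.51, then 14.90, 14.61, 14.73 and 14.74. HSPA1A, the inducible HSP70, measured 15.65, 15.58, 15.52 and 15.83, then 14.95, 14.81, 14.78 and 14.99. In both genes the sets did not overlap and no trend was called (for HSPA8 -0.14 ± 0.07, adjusted p = 0.442). Their steps were -0.69 ± 0.11 (adjusted p = 0.00201) and -0.87 ± 0.13 (adjusted p = 0.000733). Without the 21 h array 0 of the 5 steps were called, and 2 under median scaling, while 9 to 11 genes were lower under every alternative run. HSPA1A and HSPA1B are near-identical copies and may share signal.

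Sterol synthesis genes were higher in the second set. Of 21 tested 13 were higher and 0 lower (median difference 0.20), 5 had an upward step and 0 a trend. Among all tested genes 10.8% were higher and 2.36% had an upward step. LSS, lanosterol synthase, measured 11.04, 11.24, 11.02 and 11.24, then 12.48, 12.37, 12.22 and 11.93, with a step of 1.40 ± 0.15 (adjusted p = 3.86e-05). It was level in the first set and declined from its highest value in the second. Dimmer probes of LSS differed by 0.34 (adjusted p = 0.096) and by -0.02 (adjusted p = 0.969). MVD, of the mevalonate pathway, was higher by 0.55 and HMGCS1 by 0.51. Without the 21 h array 1 step was called and without the 24 h array 3. In fatty acid synthesis 4 of 12 genes were higher, led by the elongase ELOVL6, with a step of 1.58 ± 0.15 and a falling trend of -0.53 ± 0.10, not called without the 12, 21 or 33 h array (adjusted p = 0.0878, 0.0643 and 0.264). SCD, FADS1 and FADS2, the desaturases, were the other 3.

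Feedback genes and other genes of ERK output were lower in the second set. Of 16 tested 10 were lower and 0 higher (median -0.49), and the trend was below 0 for all 16 and called for 2. Over all tested genes 9.38% were lower and 1.87% had a called falling trend. DUSP6, the ERK phosphatase, measured 10.02, 9.37, 9.73 and 9.55, then 8.67, 8.17, 8.03 and 8.08. The sets did not overlap, and neither the trend (-0.45 ± 0.17, adjusted p = 0.226) nor the step (-0.84 ± 0.26, adjusted p = 0.0931) was resolved. SPRY4, ETV5 and MYC differed by -1.06, -0.85 and -0.69, of which ETV5 continued. With all 16 arrays in the fit 3 genes of this list were called lower. For the next 2 lists the share of higher genes among all tested genes was 10.8%. Of 14 FOXO and PI3K restrained genes 8 were higher and 0 lower, or 5 higher without the 12, 21 or 27 h array. They were led by PDK4, which closes pyruvate dehydrogenase, at 0.62 ± 0.08, and included ERBB3, IRS2 and FOXO1. With all 16 arrays in the fit 5 were called, and PDK4 was not (adjusted p = 0.0604). Of 11 glucocorticoid-responsive genes 7 were higher, or 4 without the 24 or the 30 h array, with SGK1 at 0.50 ± 0.08.

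Genes of serine synthesis, one-carbon metabolism and the ATF4 response were mostly lower in the second set. Of 20 tested 12 were lower and 3 higher (median difference -0.38), and 7 had a falling trend. Among all tested genes 9.38% were lower, 10.8% higher and 1.87% had a falling trend. The median trend of the list was -0.58 over 12 to 21 h and -0.03 over 24 to 33 h, a difference that was called for 0 probes. PSAT1, the transaminase of the serine pathway, measured 13.13, 12.95, 12.47 and 12.20, then 11.56, 11.59, 11.39 and 11.37, with a trend of -0.61 ± 0.09 (adjusted p = 0.000626) and no resolved step (-0.40 ± 0.13, adjusted p = 0.121). PHGDH, which opens the pathway, measured 16.00, 15.90, 15.76 and 15.67, then 15.55, 15.42, 15.42 and 15.18. Its values ran down without a break between the sets, and its difference of -0.44 ± 0.04 (adjusted p = 1.67e-06) was that of a straight course, with a step of 0.01 ± 0.09. Its signal reached 90.3% of the brightest on the array.

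The trend of PHGDH (-0.34 ± 0.06) was not called without the 12, 21 or 33 h array (-0.34, -0.35 and -0.27, adjusted p = 0.0553, 0.0595 and 0.157) or under median scaling (-0.45, adjusted p = 0.0595). Of the list 2 genes had a falling trend without the 12 h array and 4 without the 33 h array. ASNS, asparagine synthetase, fell by 1.17, and SLC7A11, SLC7A5 and SLC3A2, subunits of the transporters of cystine and large neutral amino acids, had differences of -1.15, -1.11 and -0.81. VAMP8, a vesicle fusion protein, was at 14.70, 14.70, 14.72 and 14.74, then 14.78, 14.83, 14.82 and 14.89. Every value of its second set was above the first, by 0.11 ± 0.04 on average, and the test did not call it (adjusted p = 0.0885). Such a separation upward was found for 1283 of the 12010 genes.

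Of 19 ribosome biogenesis genes 9 were lower (median -0.23), led by MRTO4 at -0.55 ± 0.07, with 0 trends and 0 steps called in limma; all 19 had a step estimate below 0. Of 18 glycolysis genes 5 were higher, with LDHB at 0.66 ± 0.08, and 1, ENO2, was lower. Of 23 oxidative phosphorylation genes 3 were higher, led by NDUFB5 (0.23 ± 0.06), which was not called without the 12 or the 21 h array (0.20 and 0.19) or under median scaling (0.16, adjusted p = 0.247) or cyclic loess (0.12, adjusted p = 0.293). Of 21 lysosome genes 6 were higher, with GAA, the acid glucosidase, at 0.44 ± 0.10, and 2 lower. Of 13 luminal keratins and transcription factors 2 were higher: the estrogen receptor ESR1 (0.73 ± 0.14), at 6.60 to 6.80 in the first set and 7.36 to 7.46 in the second, and ELF3. Over all tested genes 10.8% were higher and 9.38% lower. The counts of 3 of 23 and 2 of 13 lie near the share of higher genes and are no result about these 2 lists.

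The arrays just outside the sets placed these changes in the course. At 36 h the signal was nearer to the mean of the second set than to that of the first for 84.9% of the 3064 probes with a difference, against 58.7% of the probes without one. At 9 h it was nearer to the second set for 44.6%, against 47.2%. Among the 145 continuing probes 23 were nearer to the second set at 9 h (15.9%), among the 205 step probes 118 were (57.6%), and all 39 opposed probes were. By gene list, 19 of 20 interferon-stimulated genes, 19 of 21 sterol synthesis genes and 13 of 16 ERK output genes were nearer to the second set at 9 h, as against 5 of 19 squamous genes and 2 of 11 dehydrogenases. At 36 h the counts nearer to the second set were 19 of 20 for the interferon-stimulated genes, 12 of 21 for sterol synthesis and 16 of 16 for ERK output. Of the opposed probes 18 of 39 were (46.2%), 6 of the 26 that were higher in the second set and 12 of the 13 that were lower. IFI44L stood at 12.35 at 9 h and 12.55 at 36 h, and LSS at 12.33 and 11.84. These single arrays carry no replicate error.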

How the data were processed

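The deposited table gives for each of 24526 probes and each array a linear signal intensity, which the authors had neither corrected for background nor normalized, and a deposited detection p-value. With neqc of limma 3.58.1 (R 4.3.3, offset 16), the signals of all 16 arrays were background-corrected, quantile-normalized and put on the log2 scale, where the offset compresses the changes of dim probes. The test took the 16110 probes that reached a detection p under 0.05 on 3 or more arrays, 380 of them on exactly 3. A mean and a straight line in hours were fitted for each set (8 arrays, 4 coefficients, 4 residual degrees of freedom) with lmFit, and errors were moderated with eBayes, which allowed for intensity and gave 13 prior degrees of freedom and a median residual SD of 0.14. Tests were two-sided at an adjusted p of 0.05. As no time point had a replicate, the scatter around the lines holds both technical and biological variation and any curvature. All sample columns of the table were used.

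The sets, the 24 gene lists and the named genes were chosen with earlier results of these data known. Named genes were the 6 largest rises and 6 largest falls of the difference, the 5 largest continuing trends and the 5 largest steps in each direction, the 2 largest opposed trends in each direction, the leading member of each list, VAMP8, PHGDH and ERBB2. Some genes that this rule selects are not reported here. Other list members were named after their values were seen. Of several probes of a gene the brightest was used. Of 18631 symbols 91.0% matched RefSeq. List genes not matched by name or not detected were not tested, and motif shares are not given for sterol synthesis, where 15 of 21 promoters matched. A fold against a set without detection was computed against the lowest detected signal and is a lower bound. Alternatives were other background corrections, scalings, filters, models and array weights, and the omission of single arrays. Precision is limited by the number of arrays. Figures were drawn with matplotlib 3.10.9.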

Additional observations from a re-analysis of the deposited data

Results flagged for a closer look

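In 7 of 114 sets of 4 arrays tested (57 named genes), 1 array lay apart from the other 3 by more than Dixon's 95% limit, which chance alone passes in about 1 of 20. The arrays of a set are different times and not replicates. The values are the gap to the nearest array as a share of the range. SGK1 at 12 h (0.933) was at 11.86 against 12.35 to 12.39 at the other times of its set, LGR6 at 21 h (0.927) at 6.51 against 7.08 to 7.12, and LDHB at 18 h (0.905) at 10.31 against 10.52 to 10.54. ERBB2 at 27 h (0.858) was at 16.02 against 16.11 to 16.12. PLAC1 at 33 h (0.855) was at 5.71 against 6.27 to 6.37, IFI44L at 33 h (0.851) at 13.01 against 12.56 to 12.63, and HLA-F at 12 h (0.839) at 12.65 against 12.99 to 13.06.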

How the results depend on the processing

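The number of probes with a difference stayed within 1.5 times of 3064 under every other scaling, background correction, filter and model, and so did the trends and steps, with these exceptions. With all 16 arrays in the fit there were 216 trends, 336 steps, 79 continuing, 131 step and 21 opposed probes. With array weights there were 239 trends and 83 continuing probes, and under median scaling 25 opposed probes. With single arrays left out, differences numbered 1988 (without 21 h) to 2733, trends 103 (without 33 h) to 391, steps 86 (without 21 h) to 557, continuing probes 36 to 152, step probes 16 to 237 and opposed probes 8 to 44. The probes whose trend differs between the sets were 0 to 1. With single arrays left out, the share of differing probes with a trend of the same sign was 52.8% (without 24 h) to 75.5% (without 33 h). It was 58.1% without 21 h and 72.8% without 12 h. Under the alternatives that left out no array it moved by no more than 2 percentage points. Fewer arrays, and a longer reach of the lines to the boundary, come with leaving out an array beside it. Of the named genes' calls (55 differences, 23 trends and 32 steps), 15 trends and 14 steps were lost without the 21 h array, 12 steps without the 24 h array, 14 trends without the 33 h array and 12 trends without the 12 h array. Over 1847 repeats for named genes, 133 lost a call and 2 changed sign, both on dimmer probes: LGR6 (-0.316) and LSS (-0.017). The cause was not tested. With all 16 arrays in the fit the trends of AQP3, CDKN1A, CDT1, MAD2L1, SPRR2A and SPRR2D, the steps of DIO1, LAMP3 and SPRR2F and the differences of AQP3 and PDK4 were among those not called (adjusted p = 0.0564 to 0.235), and with no trend fitted the differences of AQP3, BIRC5, CYP4Z1, DHRS9, HERC5, KIF5C and MAD2L1 were not (adjusted p = 0.0598 to 0.299). Without background correction the differences of genes dim in one set or both, such as CLGN, DIO1, LAMP3 and ESR1, were smaller by over 1.5 times. No paired analysis was possible because no number in the labels ties an array of one set to an array of the other. Detection limits AMTN, OR2A9P and CXCL5 to bounds.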
